A study of Mus musculus with 14 samples.

Results

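The late step of mTORi-induced dormancy, from 72 h to 144 h, was examined in wild-type E14 mouse embryonic stem (ES) cells. Its libraries were chosen by their labels alone and number 4 of the 14 in the series, 2 at 72 h and 2 at 144 h. Both groups carried the same wild-type genotype and both were kept in mTORi medium, with INK128 as the compound that blocks the kinase mTOR, so they differ in the time spent in the inhibitor. The 10 other libraries were wild type without the inhibitor (0 h) or after 24 h of it, and Tet1/2 double knockout (DKO) at 0, 24 and 72 h, with 2 in each group. They entered the fit to estimate the spread between replicates, and the 0 h and 24 h wild-type libraries gave a second step for comparison. All cells came from 1 cultured line, which models the paused epiblast without the other tissues of an embryo. The study's reporting notes call the replicates biological and state that the time points of each replicate were handled in parallel.

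Diapause is a reversible arrest of the blastocyst, and inhibition of mTOR, the kinase that couples nutrients and growth factors to biosynthesis, places ES cells in a comparable state. In growing cells the mTOR complex mTORC1 is known to raise transcripts of glycolytic enzymes through the factor HIF1A, and transcripts of sterol and fatty acid synthesis enzymes through SREBP factors. How such genes behave once the paused state has been reached is the question this step addresses.

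Expression was measured as TPM, the length-corrected abundance of a transcript scaled to a fixed total per library, which gives the share of a gene among all RNA counted. Neither total RNA per cell nor sequencing depth can be read from it. A second scale multiplied the TPM of each library by 1 spike-in factor, so that levels refer to the added ERCC control RNAs. On that scale the mean over all genes was 28.9 ± 2.10 (SD, n = 2) at 72 h. At 144 h it was 19.01 ± 0.915 (SD, n = 2). The ratio of these means was 0.659, and the 4 pairings of a 144 h with a 72 h library gave ratios from 0.605 to 0.718. The mean TPM over all genes was 18.4 in every library, so these means and ratios reflect only the inferred spike-in factors. The median log2 change of all genes was 0.03 in TPM and −0.50 in spike-in scaled TPM. In what follows, "rose" and "fell" refer to TPM, thus to the share of RNA, and the spike-in scaled value stands beside the main results.

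The 4 libraries had the markers of ES cells. The 10 ES cell markers lay between 147 and 3447 TPM in every library. Of 28 defining markers of other cell types, 27 stayed under 10 TPM in all 4 libraries, the exception being Tubb3, a tubulin of neurons. The longer lists of genes used by those cell types, examined further on, hold members that ES cells also express above 10 TPM, such as Sparc, Fbln1 and Ncam1. The 6 primitive endoderm markers summed to 21.3 TPM in replicate 2 at 72 h and to between 5.36 and 6.02 TPM in the other 3 libraries. That library also had the largest share of TPM in genes under 200 bp, 4.08% against 1.42% to 1.84%, and the largest share in its 10 top genes, 26.5% against 20.2% to 22.3%. Nuclear protein-coding genes held 67.0% and 61.3% of TPM at 72 h and 69.1% and 68.7% at 144 h, so that both late libraries were above both earlier ones. The part of this composition in the results was not tested.

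Between 72 h and 144 h, 68 of 15878 genes tested were called at a Benjamini-Hochberg adjusted p under 0.05 in limma, 0.428% of all. Of these, 45 (0.283%) were higher and 23 (0.145%) were lower at 144 h. In each of the 68 both libraries at 144 h lay on the same side of both libraries at 72 h, as did 26.6% of all genes on the higher side and 19.2% on the lower side. On the spike-in scale 32 of the 45 and 23 of the 23 kept that separation, against 1.26% and 84.9% of all genes. The genes called higher comprised 40 protein-coding genes, 4 processed pseudogenes and 1 snoRNA, with log2 changes from 0.48 to 2.32. The genes called lower comprised 22 protein-coding genes and 1 processed pseudogene, with log2 changes from −2.84 to −0.57. Taking the replicate number as a block within each genotype raised the counts to 102 higher (0.642%) and 114 lower (0.718%), which contained all 45 and all 23. In spike-in scaled TPM 1 of 18232 genes (0.00548%) was called higher and 71 (0.389%) lower, and with the block there 22 (0.121%) and 3372 (18.5%), 18.6% in all. Of the 45 risers, 40 had a fitted change above 0 on the spike-in scale and 5 below 0. Of the 23 fallers, 17 were called lower there too. The calls rested on both replicates and on the other groups' share in the estimate of the spread: a fit to the 4 libraries alone called 0 genes higher and 1 lower, with 2086 at an unadjusted p under 0.05. Without replicate 1 at 72 h 20 genes were called higher and 13 lower, without replicate 2 at 72 h 2 and 1, without replicate 1 at 144 h 1 and 1, and without replicate 2 at 144 h 4 and 3.

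**Figure D1:**
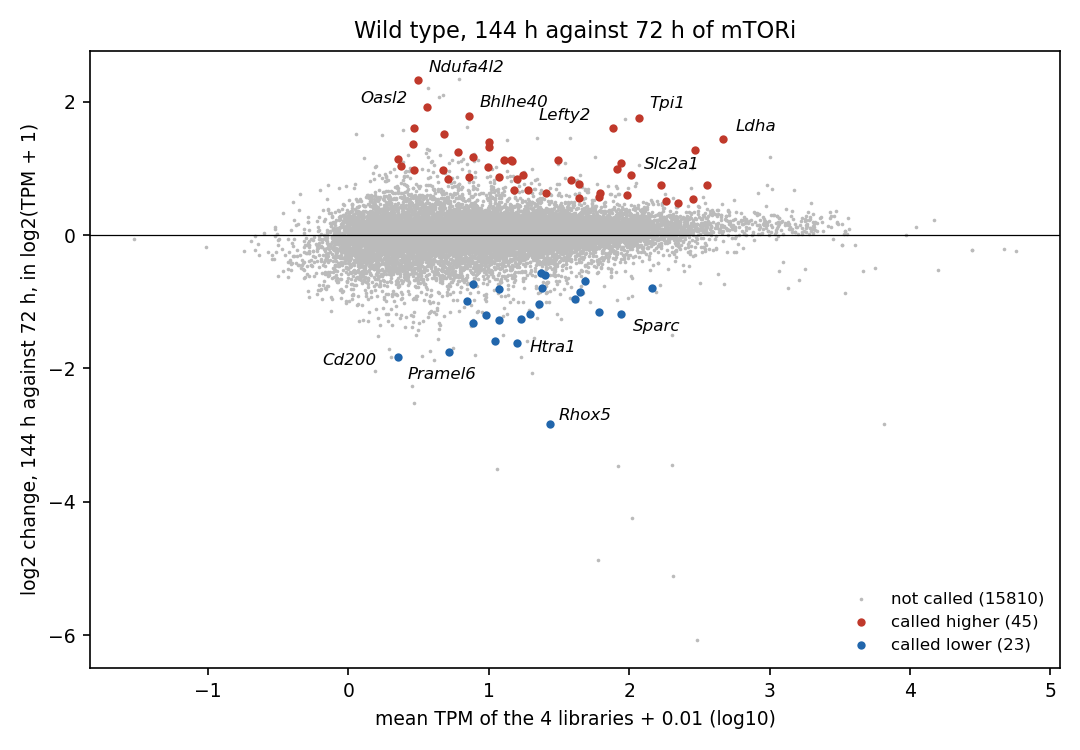
Log2 change in log2(TPM + 1) between 144 h and 72 h against the log10 of the mean TPM of the 4 libraries (with a small offset), 1 point per gene tested. The 45 genes called higher (red) reach 2.32 and the 23 called lower (blue) reach −2.84, while the other genes (grey) were not called, among them all but Rhox5 of the 13 genes below −2, of which 6 span under 200 bp.

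Glycolysis gave the largest group of risers. Of 23 identifiers tested from a list of 22 glycolytic and glucose or lactate transport genes, 9 were called higher and 0 lower, against 0.283% called higher among all genes. The replicate block gave 14 higher, against 0.642%. This list, like the others used here, was drawn up with earlier results of these data known, so the counts of all lists are descriptive. The median log2 change of the list was 0.68, against 0.03 for all genes, and 21 of 23 lay above 0, against 56.3% of all genes. Its median in spike-in scaled TPM was 0.08, against −0.50 for all genes, with 13 of 23 above 0 and 0 called higher (4 higher and 1 lower with the block). That median moved with single libraries. It was −0.11 with 8 of 23 above 0 without replicate 2 at 72 h, and 0.24 with 15 of 23 without replicate 1 at 72 h. The 23 identifiers together held 7764 and 6395 TPM at 72 h and 10972 and 10379 TPM at 144 h, against 10593 and 10680 TPM at 0 h.

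Tpi1 (mm10, chr6:124810586-124814296), which interconverts the triose phosphates, had the largest change of the list. It stood at 64.2 and 44.6 TPM at 72 h and at 183 and 181 TPM at 144 h, a ratio of means of 3.35 (log2 change 1.75, SE 0.20, limma adjusted p = 0.0074). Both late libraries were above both earlier ones, and below the 204 and 239 TPM of untreated cells. In spike-in scaled TPM its log2 change was 1.16 (SE 0.34, limma adjusted p = 0.16).

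Ldha (mm10, chr7:46841475-46855627) encodes the lactate dehydrogenase subunit that favours the making of lactate. It stood at 300.2 and 204 TPM at 72 h, then at 721 and 629 TPM at 144 h (log2 change 1.44, SE 0.20, limma adjusted p = 0.025). The same gene had been at 991 and 1167 TPM at 0 h and at 112 and 104 TPM at 24 h, so that the 144 h level lay between the untreated and the 24 h levels. In spike-in scaled TPM the log2 change was 0.84 (limma adjusted p = 0.24).

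Pgk1, the first ATP-yielding kinase of the pathway, was at 199 and 147 TPM at 72 h and at 433 and 399 TPM at 144 h (log2 change 1.27, SE 0.13, limma adjusted p = 0.0059), close to its 384 and 424 TPM at 0 h. Slc16a3, the lactate exporter MCT4, went from 22.2 and 16.3 TPM to 42.4 and 43.2 TPM (log2 change 1.13, SE 0.16, limma adjusted p = 0.025). Aldoc, an aldolase isoform best known from brain, was near 1 TPM at 72 h, at 1.34 and 0.987, and reached 5.07 and 4.06 TPM (log2 change 1.36, limma adjusted p = 0.028). None of these 3 genes overlapped between the times, and each kept a positive value on the spike-in scale, at 0.68, 0.55 and 1.02.

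The 4 other called members, of which only Pgam1 falls under the naming rule, were the glucose transporter Slc2a1 (log2 change 0.90), the phosphofructokinase Pfkl (1.08), the mutase Pgam1 (0.54) and the isomerase Gpi1 (0.48). Pgam1 and Gpi1 turned to −0.06 and −0.12 on the spike-in scale. Slc2a1 was at 72.5 and 71.7 TPM at 72 h and at 134.5 and 135.5 TPM at 144 h, groups that did not overlap. The hexokinase Hk2, at the entry of the pathway, was not called, at 179 and 149 TPM against 162 and 150.3 TPM. Without single libraries the number of members called higher was 9 (without replicate 1 at 72 h), 1 (without replicate 2 at 72 h), 0 (without replicate 1 at 144 h) and 2 (without replicate 2 at 144 h), while the list median stayed between 0.56 and 0.77.

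Glycolytic genes have near-identical copies in the genome, whose reads a transcript assembler can split. Eno1b, an intronless copy of the enolase gene Eno1, was called (log2 change 0.75, limma adjusted p = 0.025), and Eno1 itself was not (log2 change 0.69). The processed pseudogenes Pgk1-rs7 (1.12), Gm5537 (1.12), Pgam1-ps2 (0.60) and Gm4735 (0.75) were called as well. The values of these copies and of their parent genes are uncertain for that reason. Apart from Eno1b and Gm4735 the copies, and Eno1, were named after their values were seen.

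**Figure D2:**
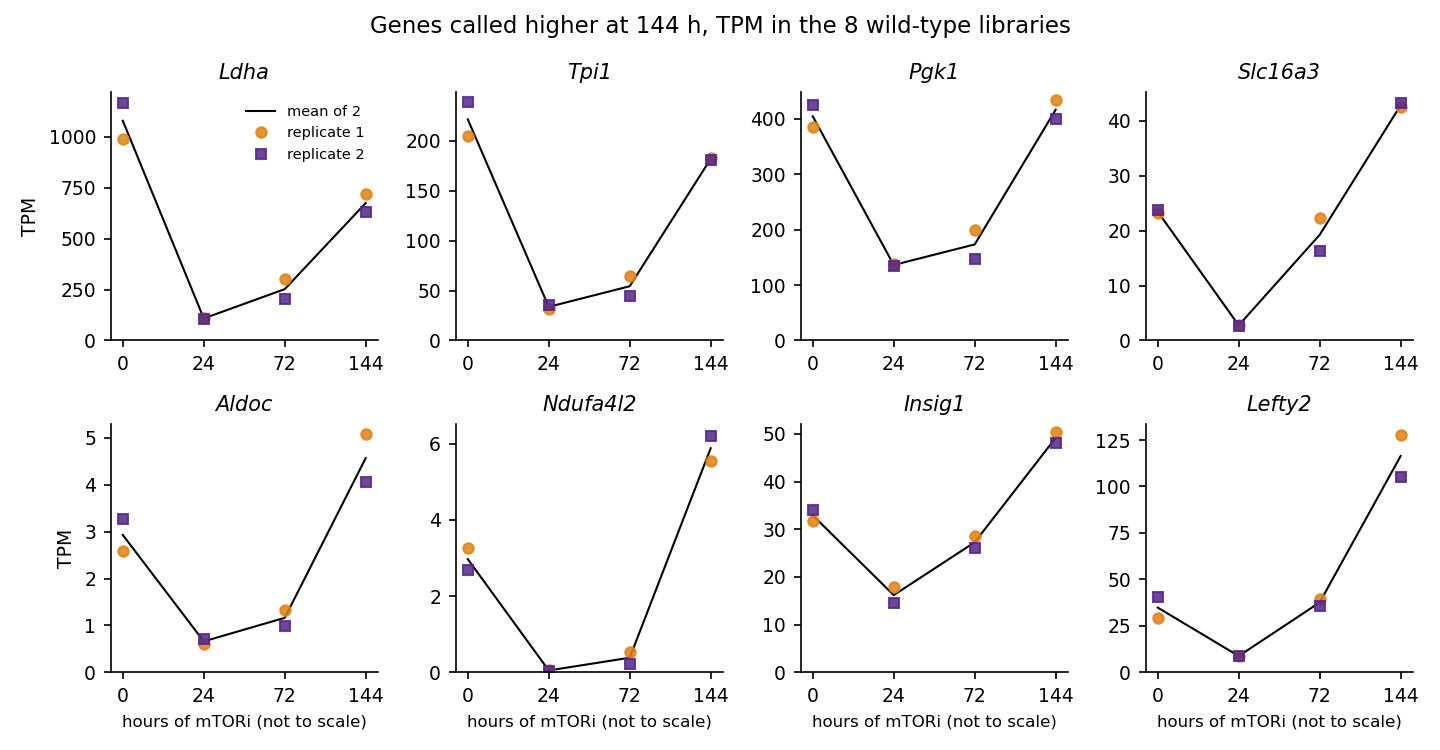
TPM (y axis, from 0) of 8 genes called higher at 144 h in the 8 wild-type libraries at 0, 24, 72 and 144 h of mTORi, with 1 point per library and a line through the mean of 2. In each of the 8 genes both libraries at 144 h lie above both at 72 h, and all 8 have their lowest mean at 24 h.

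Promoter sequences are shown for 3 of the risers that hold the core of the HIF1A recognition site and for Tpi1, the largest glycolytic riser, which does not. They are the 250 bases before the transcription start given by RefSeq, with every ACGTG, on either strand, in capitals. The Ldha start used lies 4329 bases from the 5′ end of the gene in the deposited files, the other 3 starts between 0 and 587 bases.
Ldha, GRCm38.p6, chr7:46845554-46845803, + strand: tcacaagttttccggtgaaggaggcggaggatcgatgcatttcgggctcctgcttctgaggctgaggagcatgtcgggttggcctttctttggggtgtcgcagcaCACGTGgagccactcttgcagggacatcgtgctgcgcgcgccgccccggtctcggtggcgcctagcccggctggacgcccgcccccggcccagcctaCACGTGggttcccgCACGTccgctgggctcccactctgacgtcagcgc
Pgk1, GRCm38.p6, chrX:106186850-106187099, + strand: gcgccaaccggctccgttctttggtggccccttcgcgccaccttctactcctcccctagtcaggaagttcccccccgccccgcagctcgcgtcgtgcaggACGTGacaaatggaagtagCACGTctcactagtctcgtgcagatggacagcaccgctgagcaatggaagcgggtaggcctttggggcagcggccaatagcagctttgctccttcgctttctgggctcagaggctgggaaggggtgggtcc
Slc16a3, GRCm38.p6, chr11:120948817-120949066, + strand: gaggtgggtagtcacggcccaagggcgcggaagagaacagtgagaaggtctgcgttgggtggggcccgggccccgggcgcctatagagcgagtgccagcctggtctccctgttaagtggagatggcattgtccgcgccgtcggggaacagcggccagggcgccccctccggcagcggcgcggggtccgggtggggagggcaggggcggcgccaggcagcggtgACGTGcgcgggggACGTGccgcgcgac
Tpi1, GRCm38.p6, chr6:124814159-124814408, - strand: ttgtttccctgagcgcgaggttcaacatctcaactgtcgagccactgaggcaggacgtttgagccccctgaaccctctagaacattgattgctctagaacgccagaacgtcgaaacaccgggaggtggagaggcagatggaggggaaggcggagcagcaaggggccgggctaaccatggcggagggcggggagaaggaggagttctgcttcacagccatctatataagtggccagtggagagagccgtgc

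In Ldha the letters form 3 stretches, of which a pair reads CACGTG, a palindrome matched on both strands. Pgk1 and Slc16a3 hold 2 stretches each (CACGT is ACGTG read on the other strand) and Tpi1 holds 0. ACGTG was present in 8 of 21 promoters of the glycolysis list and in 5 of the 9 whose genes were called higher, against 22.2% of 10045 promoters of genes tested. GCGTG, the other form of the core, was in 10 of 21 and in 4 of 9, against 46.4%. Either form was in 16 of 21 and 7 of 9, against 57.7%. Over all genes called higher, 11 of 27 promoters held ACGTG and 20 of 27 either form. These counts describe letters in a window and were read after the genes were known to have risen.

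Several risers outside glycolysis belong to the pathway of the hypoxia-inducible factors, oxygen-sensitive transcription factors that mTORC1 also promotes. A list of 34 such genes was added last, after the values of this step had been seen. Of 29 tested, 7 were called higher and 0 lower, against 0.283% called higher among all genes, and they include Ldha, Pgk1 and Slc2a1 of the glycolysis list. The list median was 0.33 in TPM and −0.20 in spike-in scaled TPM, where 12 of 32 tested lay above 0 and 1 was called higher. With the block that scale gave 6 higher and 4 lower, against 0.121% and 18.5% of all genes. Because members were chosen with these values known, the counts of this list are descriptive only. Ndufa4l2 (mm10, chr10:127514967-127517154), a mitochondrial protein that lowers complex I activity under low oxygen, had the largest rise of all genes called. It was at 0.542 and 0.224 TPM at 72 h and at 5.54 and 6.21 TPM at 144 h (log2 change 2.32, SE 0.19, limma adjusted p = 0.0017). Without the block this was the 1 gene called higher on the spike-in scale, at a log2 change of 2.15 (SE 0.33, limma adjusted p = 0.0047). Its neighbour Shmt2, on the opposite strand and overlapping it by 32 bp, was at 114 and 77.7 TPM and then at 129 and 117 TPM (log2 change 0.38, limma adjusted p = 0.42).

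Bhlhe40, a repressor of the circadian clock that responds to low oxygen, was at 2.84 and 2.56 TPM at 72 h and at 11.3 and 12.2 TPM at 144 h (log2 change 1.79, SE 0.19, limma adjusted p = 0.0062). It had been between 2.56 and 3.47 TPM in the 4 earlier libraries at 0 h and 24 h, so the 144 h libraries alone were above this range. Egln3, an oxygen-sensing prolyl hydroxylase, went from 3.73 and 2.73 TPM to 8.67 and 9.15 TPM (log2 change 1.24), and Mgarp, a mitochondrial protein, from 1.15 and 0.923 TPM to 3.51 and 3.44 TPM (log2 change 1.14). Both of these were named after their values were seen. Hif1a itself stood at 58.8 and 60.2 TPM at 72 h and at 59.3 and 64.0 TPM at 144 h (log2 change 0.05, limma adjusted p = 0.93).

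Of 24 cholesterol synthesis genes tested, 3 were called higher and 0 lower, against 0.283% called higher among all genes (5 with the block, against 0.642%). The list median was 0.33 and 23 of 24 lay above 0, against 56.3% of all genes. The spike-in scaled median was −0.25, with 5 of 24 above 0 and 0 called higher. Insig1, the sterol-induced brake on SREBP processing, was at 28.5 and 26.0 TPM at 72 h and at 50.3 and 48.0 TPM at 144 h (log2 change 0.83, SE 0.11, limma adjusted p = 0.024). Lss, which closes the sterol ring system, rose by a log2 change of 0.67 (limma adjusted p = 0.028), from 16.2 and 12.9 TPM to 23.7 and 23.6 TPM. Insig1 and Lss had spike-in scaled log2 changes of 0.25 and 0.10.

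In fatty acid synthesis 1 of 10 genes was called higher (3 with the block), against the same 0.283% and 0.642% of all genes. The list median was 0.40 in TPM and −0.19 in spike-in scaled TPM, where 3 of 10 lay above 0 and 0 were called. It was Acly, which makes cytosolic acetyl-CoA, at 157 and 148 TPM and then at 224 and 209 TPM (log2 change 0.51, SE 0.08, limma adjusted p = 0.027). Its sign turned in spike-in scaled TPM, to −0.09. With any 1 of the 4 libraries left out, 0 genes of cholesterol or fatty acid synthesis were called, except 1 of cholesterol synthesis without replicate 1 at 72 h, and the list medians stayed between 0.29 and 0.48. The desaturase gene Scd1, not called, had the largest value of the list, a log2 change of 1.22 (limma adjusted p = 0.17).

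Of 18 genes of the interferon response tested, 3 rose (6 with the block), against 0.283% (0.642% with the block) of all genes. The list median was 0.27 in TPM and −0.21 in spike-in scaled TPM, where 7 of 20 tested lay above 0 and 0 were called. With the block that scale gave 3 higher and 3 lower, against 0.121% and 18.5% of all genes. The list summed to 740.1 and 655 TPM at 72 h and to 844 and 864 TPM at 144 h. Oasl2, an antiviral 2′-5′ oligoadenylate synthetase-like protein, went from 0.656 and 1.23 TPM to 7.16 and 5.51 TPM (log2 change 1.92, SE 0.31, limma adjusted p = 0.029). Gbp2, an interferon-induced GTPase, went from 1.19 and 0.712 TPM to 5.34 and 4.43 TPM (log2 change 1.60, SE 0.24, limma adjusted p = 0.025). Neither gene exceeded 0.669 TPM in untreated cells. Ifitm3, a membrane protein that restricts virus entry and is high in ES cells, had higher levels throughout. It was at 57.5 and 51.6 TPM at 72 h and at 113 and 105 TPM at 144 h (log2 change 0.99, limma adjusted p = 0.029), under its 204 and 247 TPM at 0 h. No member was called once any 1 of the 4 libraries was left out.

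Among signalling genes, Lefty2 (mm10, chr1:180893108-180899103), an inhibitor of Nodal that Nodal itself induces, rose from 39.3 and 36.0 TPM to 128 and 105 TPM (log2 change 1.60, SE 0.15, limma adjusted p = 0.0044). It was the 1 call among 13 Nodal, BMP and Id genes, against 0.283% called higher among all genes, and the list median was 0.08. In spike-in scaled TPM that median was −0.41, with 3 of 14 tested above 0 and 0 called. The block called 2 higher and 4 lower there, against 0.121% and 18.5% of all genes. Fgf15, a growth factor of the early neural and epiblast lineage, went from 5.32 and 4.84 TPM to 15.9 and 14.1 TPM (log2 change 1.40, SE 0.19, limma adjusted p = 0.024). This was the 1 call among 12 genes of formative and primed pluripotency (2 with the block, against 0.642% of all genes), a list with a median of 0.54 in TPM and 0.05 on the spike-in scale, and with 11 of 12 above 0 in TPM. Without replicate 2 at 72 h that median was 0.31. Mycl, a MYC family member, went from 4.39 and 5.34 TPM to 10.2 and 9.16 TPM (log2 change 0.87, limma adjusted p = 0.0498).

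Rab25, a GTPase of membrane recycling in epithelia, and Ndrg2, a stress-responsive gene that restrains growth, complete the 12 largest rises. Rab25 was at 2.04 and 2.01 TPM at 72 h and at 7.62 and 7.64 TPM at 144 h (log2 change 1.51, limma adjusted p = 0.018). Ndrg2 was at 6.34 and 4.43 TPM and then at 15.1 and 14.3 TPM (log2 change 1.31, limma adjusted p = 0.025).

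Of the genes that fell, Rhox5 changed most. Rhox5 (mm10, chrX:37804842-37808876) is an X-linked homeobox gene of the reproductive lineage, known to be silenced by DNA methylation. It was at 248 and 193 TPM at 0 h, at 174 and 184 TPM at 24 h, at 50.8 and 46.7 TPM at 72 h and at 6.82 and 5.20 TPM at 144 h. The last step was an 8.12-fold decrease in mean TPM (log2 change −2.84, SE 0.21, limma adjusted p = 0.0010) and a 12.3-fold decrease in spike-in scaled TPM. Of 7 Rhox genes tested it was the 1 called, also with any 1 of the 4 libraries left out, against 0.145% called lower among all genes. Spike-in scaled TPM gave 2 called lower, against 0.389% of all genes, and 5 with the block, against 18.5%. The other 6 had log2 changes between −0.83 (Rhox13) and 0.17 (Rhox9), and the list median was −0.39.

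Pramel6, an ES cell gene that promotes loss of DNA methylation by lowering UHRF1, was at 6.74 and 10.5 TPM at 72 h and at 1.93 and 1.69 TPM at 144 h (log2 change −1.75, SE 0.29, limma adjusted p = 0.035). Its level had been 26.4 and 33.8 TPM at 0 h. Aard, a gene expressed in testis, Lemd1, known from testis and tumours, and Arl14epl had the same order of levels, with a lower mean at each successive time. Aard was at 12.4 and 15.3 TPM and then at 5.27 and 5.54 TPM (log2 change −1.20), Arl14epl at 25.4 and 30.2 TPM and then at 10.8 and 12.5 TPM (log2 change −1.19). Lemd1 was at 11.3 and 11.5 TPM and then at 3.25 and 4.78 TPM (log2 change −1.33). A list of 20 germline genes repressed by DNA methylation holds none of these genes, and 0 of its members were called in TPM. In it 3 passed an unadjusted p under 0.05, against 10.8% of all genes. The block called 1 lower, against 0.718% of all genes. The list median was −0.19, with 16 of 20 below 0.

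Sparc and Col4a2, which encode basement membrane proteins made in quantity by primitive endoderm, were the 2 members called lower of 17 on the primitive endoderm list. This stands against 0.145% called lower among all genes. The block called 3 lower, against 0.718% of all genes. Sparc (mm10, chr11:55394500-55423183) was at 113 and 129.5 TPM at 72 h and at 53.5 and 51.8 TPM at 144 h (log2 change −1.18, SE 0.14, limma adjusted p = 0.0074). Col4a2 was at 13.4 and 21.0 TPM and then at 5.24 and 4.55 TPM (log2 change −1.60, SE 0.26, limma adjusted p = 0.029). Its neighbour Col4a1, read from the opposite strand and sharing 22 bp with it, had a like value of −1.54 (limma adjusted p = 0.053). Both genes had been higher at 24 h than at 0 h, Sparc at 437 and 350.5 TPM and Col4a2 at 144 and 86.3 TPM.

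The list median was −0.64 with 1 of 17 above 0. In spike-in scaled TPM it was −1.13, with 3 called lower, against 0.389% of all genes, and 12 with the block, against 18.5%. Without replicate 2 at 72 h, the library with the high sum of primitive endoderm markers, it was −0.26 with 4 of 17 above 0 and 0 called. Sparc and Col4a2 were also not called without either library at 144 h, and both were called without replicate 1 at 72 h, where the list median was −1.15. The part of the marker sum in these values was not tested. The defining factors Gata6 (1.33 and 4.86 TPM, then 1.31 and 1.91 TPM) and Gata4 (1.29 and 5.27 TPM, then 1.08 and 1.45 TPM) overlapped between the times and were not called. In bulk RNA, fewer cells of a type and less RNA per cell cannot be told apart.

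The remaining genes among the 12 largest falls belong to no list used here. Cd200, an immune-inhibitory membrane glycoprotein, was at 2.91 and 5.24 TPM and then at 0.309 and 0.483 TPM (log2 change −1.83, limma adjusted p = 0.028). Htra1, a secreted serine protease, went from 19.4 and 29.5 TPM to 6.81 and 7.41 TPM (log2 change −1.62). Afap1, an actin-crosslinking adaptor, went from 15.1 and 19.07 TPM to 6.42 and 6.44 TPM (log2 change −1.28). Ttn, the titin gene of muscle, went from 24.3 and 24.0 TPM to 8.73 and 10.3 TPM (log2 change −1.27). Folr1, a folate receptor, was at 78.2 and 91.2 TPM and then at 34.6 and 40.3 TPM (log2 change −1.16, limma adjusted p = 0.0498), and overlaps Anapc15 on the opposite strand, which had a log2 change of −0.10. Htra1 lies within Fgfr2, also on the opposite strand, which had a log2 change of −0.12. Whether counting used strand is not given in the sources used here, so reads of such pairs may not be separable. All 12 of the largest falls had larger log2 falls on the spike-in scale, from −1.75 (Folr1) to −3.43 (Rhox5), and all 12 were called there too.

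In catabolism, Slc25a20, the carrier that brings acylcarnitines into mitochondria, fell from 56.9 and 59.0 TPM to 30.3 and 32.7 TPM (log2 change −0.86, SE 0.13, limma adjusted p = 0.028). It was the 1 call among 18 genes of the carnitine shuttle and fatty acid oxidation, against 0.145% called lower among all genes. In that list 14 of 18 lay below 0 (median −0.12), while 56.3% of all genes lay above 0. Gabarapl2, which helps to close autophagosomes, fell from 180.1 and 189 TPM to 106 and 107 TPM (log2 change −0.79, SE 0.13, limma adjusted p = 0.037). It was the 1 call among 38 autophagy genes, against the same 0.145% of all genes. The list median was 0.01 in TPM and −0.58 in spike-in scaled TPM. The block added 1 call in the opposite direction, Bnip3, a receptor for the removal of mitochondria, at a log2 change of 1.17 (limma adjusted p = 0.093, and 0.033 with the block), named after its values were seen. In limma none of 41 genes of the lysosome and TFE3 family passed the test (1 at an unadjusted p under 0.05, against 10.8% of all genes).

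**Figure D3:**
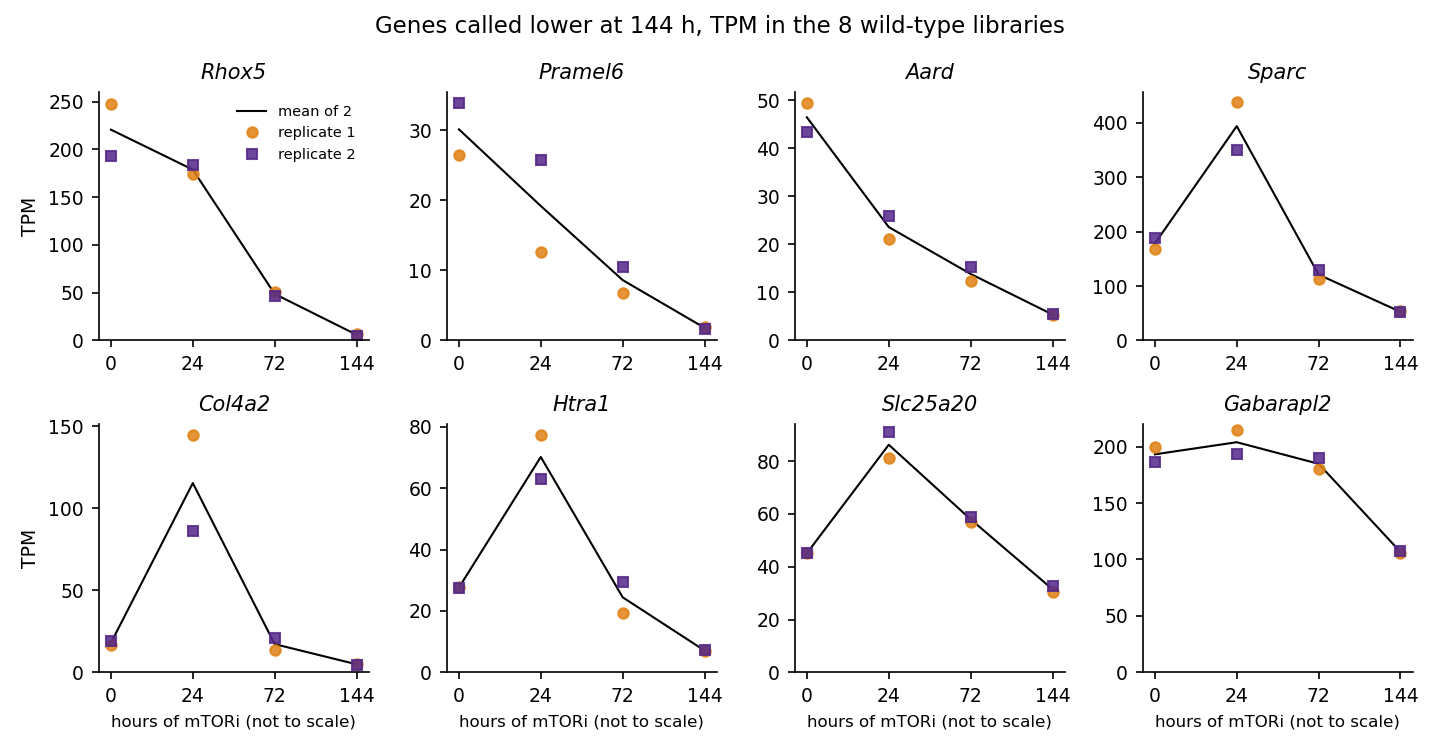
TPM (y axis, from 0) of 8 genes called lower at 144 h in the 8 wild-type libraries at 0, 24, 72 and 144 h of mTORi, with 1 point per library and a line through the mean of 2. Both libraries at 144 h lie below both at 72 h in each, Rhox5, Pramel6 and Aard have a lower mean at each successive time, and Sparc, Col4a2, Htra1, Slc25a20 and Gabarapl2 have their highest mean at 24 h.

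The pluripotency network was not among the genes called. Of 10 core and 16 naive pluripotency genes 0 were called in TPM, with the block or on the spike-in scale. With the block on that scale 2 core genes were lower, against 18.5% of all genes. In TPM 1 core and 3 naive genes passed an unadjusted p under 0.05, against 10.8% of all genes. Pou5f1, which encodes OCT4, was at 1027 and 889 TPM at 72 h and at 1011 and 974 TPM at 144 h (log2 change 0.05, limma adjusted p = 0.92). Sox2 was at 308 and 308 TPM and then at 369 and 380.3 TPM (0.28, limma adjusted p = 0.37), Nanog at 154 and 214 TPM and then at 207 and 230.4 TPM (0.26, limma adjusted p = 0.69). The naive factors Klf4 (0.25), Zfp42 (0.21) and Esrrb (0.11) also had positive values that were not called. In the naive list 13 of 16 lay above 0, and the largest value in either direction was that of Dppa3, a germline and oocyte factor (log2 change −0.84, limma adjusted p = 0.80), at 2.11 and 3.63 TPM and then at 2.00 and 0.507 TPM. In spike-in scaled TPM these 6 genes lay between −0.55 (Pou5f1) and −0.32 (Sox2), near the median of all genes.

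The enzymes that write and remove DNA methylation were not called either. Tet1, which oxidizes 5-methylcytosine, was at 313 and 289 TPM at 72 h and at 321 and 349 TPM at 144 h (log2 change 0.16). Tet2 had a log2 change of 0.20 and Tet3 of −0.10. Among methyltransferases Dnmt1 had 0.14, Dnmt3a −0.04 and Dnmt3b 0.33, and Uhrf1, which guides DNMT1 to new DNA, had 0.01. Dnmt3l, the catalytically inactive partner of the de novo enzymes, was at 536 and 494 TPM and then at 348 and 337 TPM, without overlap (log2 change −0.59, limma adjusted p = 0.33, and 0.053 with the block). It was called lower in spike-in scaled TPM (−1.19, limma adjusted p = 0.044). Mtor, the target of the inhibitor, had a log2 change of 0.01 and Tfe3, a transcription factor that mTOR holds in the cytoplasm, of −0.02.

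Leaving out the hypoxia-inducible factor list, which was added last, 36 of the 47 lists had 0 members called. Of their 915 entries 92 (10.1%) passed an unadjusted p under 0.05, near the 10.8% of all genes, and the block called 6, 1 in each of 6 lists. These were Gata3, Dusp4, Stk31 and Mest, lower, and Bak1 and Fbln1, higher, and Mest was named after its values were seen. Medians of the 36 lists lay between −0.24 (trophectoderm) and 0.28 (replication-dependent histones). Of the 82 cytosolic ribosomal protein genes 81 had a value above 0, though the median was small, at 0.16, with the largest value in Rpl41 (0.36). All 30 ribosome biogenesis genes had values above 0 (median 0.16), as did 35 of 39 genes of mitosis (0.12) and 32 of 40 of DNA replication (0.11). These shifts leaned on replicate 2 at 72 h. Without it 57 of 82 ribosomal protein genes (median 0.05), 17 of 30 ribosome biogenesis genes (0.04), 30 of 39 genes of mitosis (0.09) and 21 of 40 of DNA replication (0.02) lay above 0, against a median of 0.03 for all genes. The histone median was then 0.12. Without replicate 1 at 72 h the medians of the 5 lists were higher, from 0.18 (mitosis) to 0.42 (histones). On the spike-in scale 0 of the members of these 4 lists had a value above 0, and their medians lay between −0.48 and −0.44. Over the same 47 lists, 38 had a median above 0 in TPM and 45 had a median below 0 on the spike-in scale.

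**Figure D4:**
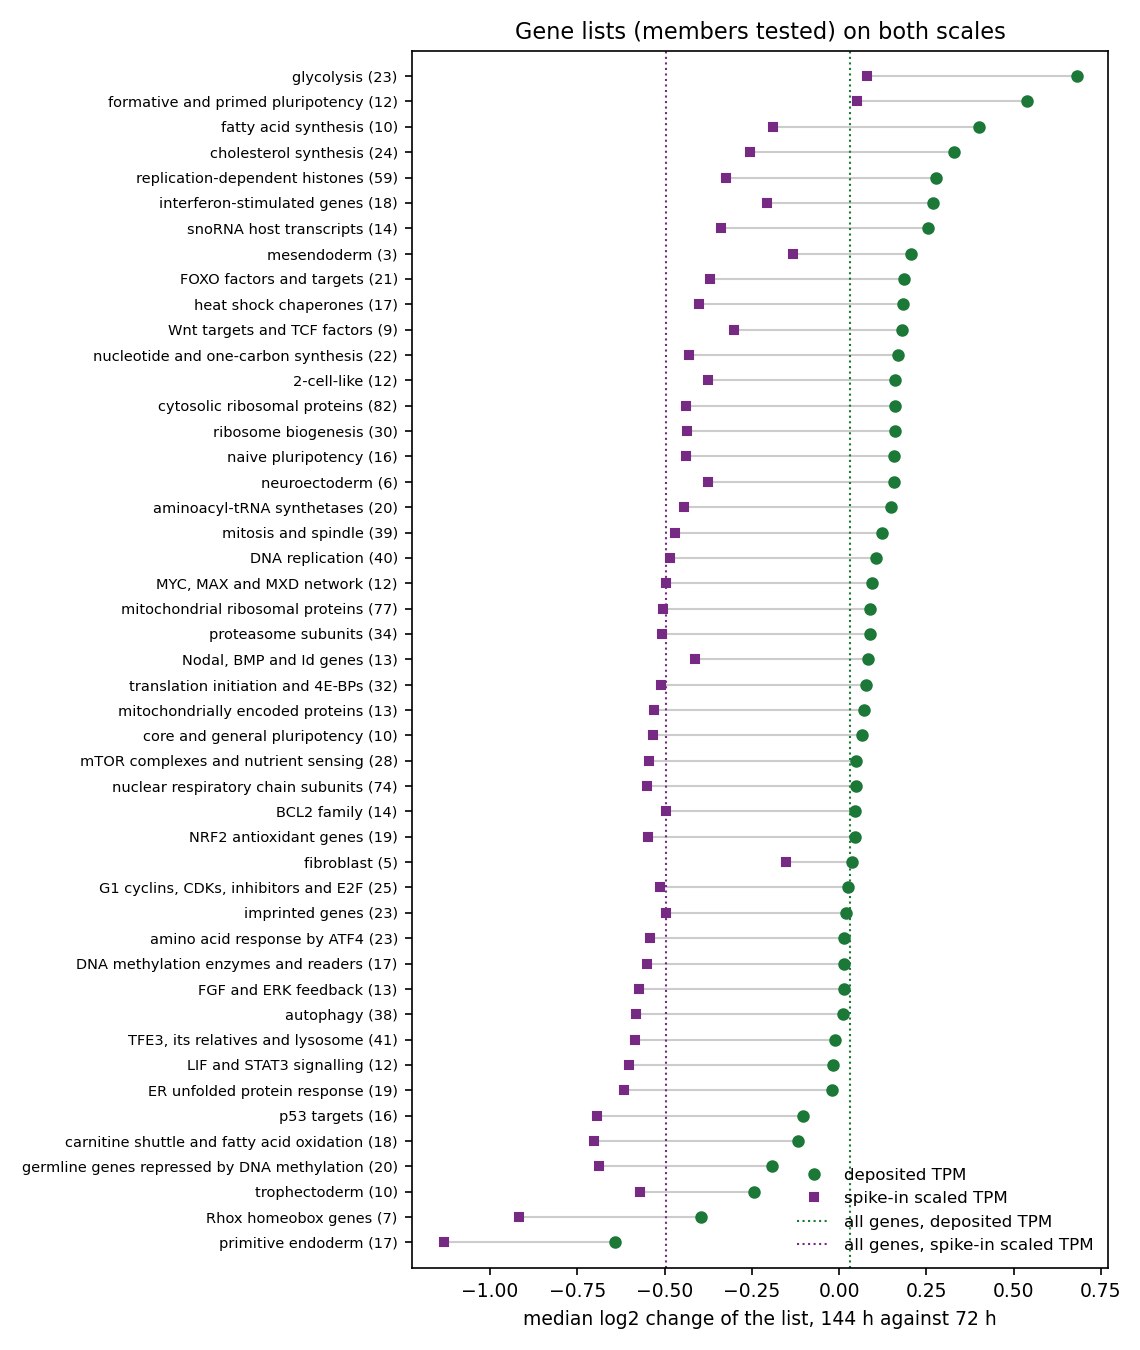
Median log2 change between 144 h and 72 h of each of 47 gene lists (members tested in brackets), in deposited TPM (green circles) and spike-in scaled TPM (purple squares), with the medians of all genes as dotted lines at 0.03 and −0.50. Glycolysis (0.68 and 0.08) is highest and primitive endoderm (−0.64 and −1.13) lowest on both scales.

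Whether the late step differed from the first day of mTORi was tested as the difference between the 144 h against 72 h change and the 24 h against 0 h change, steps that share no library. Of 15878 genes 3790 (23.9%) were called for this difference, 1924 (12.1%) with a more positive and 1866 (11.8%) with a more negative change in the late step. The block gave 2514 and 2413, and the spike-in scale 95 and 239. In TPM, 177 genes were past a log2 change of 1 in either direction in the late step and 1127 on the first day. The mean spike-in scaled TPM over all genes, given above for the late step, was 38.8 in both libraries at 0 h and 26.3 and 34.0 at 24 h.

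The late risers were largely genes with a negative value on the first day. Of 45 risers, 42 had a first-day value below 0, against 50.1% of all genes. Of 23 fallers, 17 had a first-day value above 0, against 49.9% of all genes. In the glycolysis list 15 of 23 were called with a more positive late step and 0 with a more negative one, and the list's median first-day value was −0.91. In cholesterol synthesis it was 21 of 24, with a first-day median of −0.87. In primitive endoderm 12 of 17 were called with a more negative late step, with a first-day median of 2.10.

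The largest positive differences were those of Ldha (4.74, SE 0.29), Tpi1 (4.43, SE 0.28), Ndufa4l2 (4.24, SE 0.27), Fgf15 (3.85, SE 0.27) and Slc16a3 (3.83, SE 0.23), each at a limma adjusted p of 4.7e-05 or less. Fgf15, for example, was at 6.77 and 8.73 TPM at 0 h and at 0.661 and 0.512 TPM at 24 h, before its later rise. The largest negative differences were those of Srgn (−4.23, SE 0.77), Col4a2 (−4.17, SE 0.36), Platr15 (−3.98, SE 0.67), Nostrin (−3.72, SE 0.89) and Hs3st1 (−3.65, SE 0.38). Platr15 is a long noncoding RNA of pluripotent cells, Nostrin a regulator of nitric oxide synthase traffic and Hs3st1 a heparan sulfate sulfotransferase, and the 5 had limma adjusted p values from 0.00012 to 0.014. Of these 5 only Col4a2 was called in the late step itself. Srgn, a proteoglycan core protein, was at 3.18 and 10.01 TPM at 0 h, at 43.0 and 58.0 TPM at 24 h, at 3.64 and 10.2 TPM at 72 h and at 1.89 and 1.86 TPM at 144 h.

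**Figure D5:**
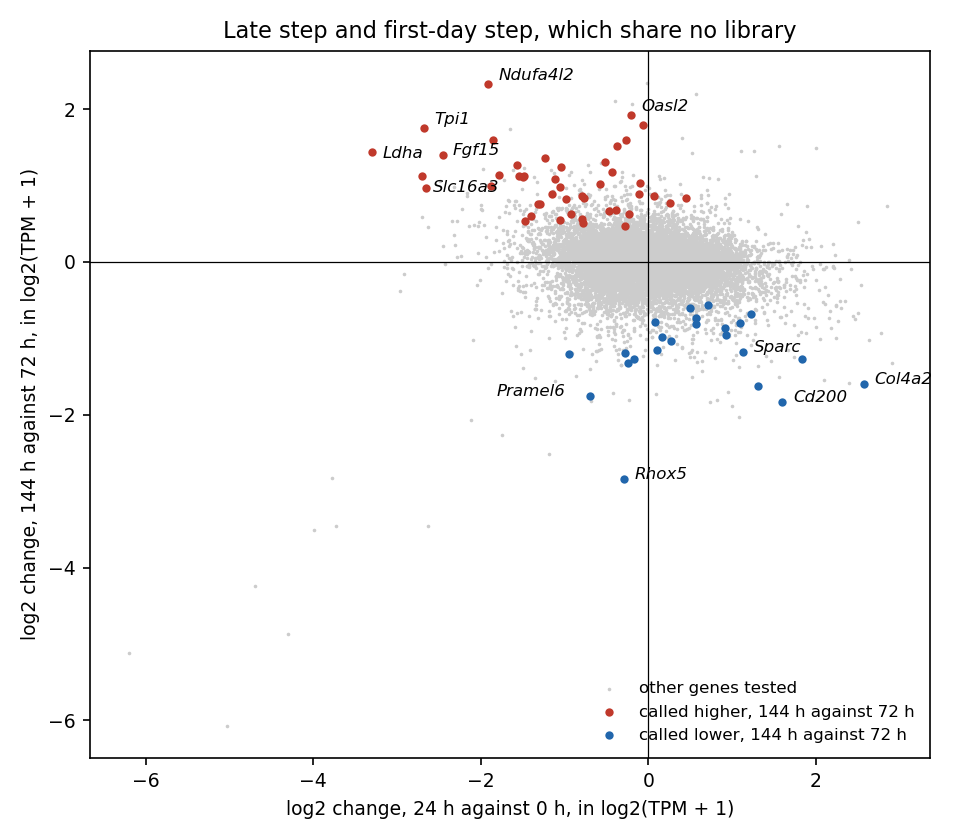
Log2 change of each gene tested on the first day (24 h against 0 h, x axis) and in the late step (144 h against 72 h, y axis), both in log2(TPM + 1), with genes called higher (red) or lower (blue) in the late step. Of the 45 red points 42 lie left of 0, and 17 of the 23 blue points lie right of it.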

How the data were processed

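The files hold total RNA sequencing of 14 libraries of E14 ES cells, made with ERCC spike-in RNA and ribosomal RNA depletion. Per the submitters' processing notes, the authors used cutadapt 2.4, STAR 2.7.3a and StringTie 2.0 with the mm10 genome (the published methods name later releases of STAR and StringTie), and deposited 1 table per library with TPM values. Counts and depth are not used here. The TPM column was summed per gene identifier. The spike-in scaled TPM is that TPM multiplied by 1 factor per library, taken as the median ratio to the study's spike-in normalized table.

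The 15878 genes averaging 1 TPM or more across the 14 libraries were fitted in limma 3.58.1 (R 4.3.3, trend) on log2(TPM + 1), with 7 groups of 2 sharing 1 estimate of the spread. Fold changes are on that scale, which understates changes of low genes, and p values were adjusted by Benjamini-Hochberg. The code was tested on simulated data. Per the reporting notes, replicate numbers pair time points within a genotype. Deviations of same-numbered wild-type libraries correlated at 0.068 to 0.461, over 0.1 in 5 of 6 pairs and at 0.171 between 72 h and 144 h, and the fit with that block is an alternative. The notes describe experiments as independent repeats, while the labels of these libraries do not name separate cultures, so p values measure the spread between these libraries.

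Named genes were the 12 largest called rises and falls spanning at least 200 bp with libraries apart on both scales, up to 4 called members per gene list (or its largest change), a fixed set of pluripotency, mTOR and DNA methylation genes, the 6 largest called differences in TPM, and the 5 largest differences from the first-day step in each direction. Members, lists and rules were chosen with earlier results of these data known. Lists are described by counts and medians, with no test. Some items that these rules name are not reported here. Promoters are from RefSeq, GRCm38.p6, the patch release of mm10.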

Additional observations from a re-analysis of the deposited data

Results flagged for a closer look

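The late step and the first-day step, which share no library, differed by the test of the difference itself in 1924 genes with a more positive and 1866 with a more negative late step. The glycolysis list had 15 such members of 23 tested, all more positive, against 12.1% of all genes called more positive. By gene, the log2 difference between the steps was 4.74 for Ldha, 4.43 for Tpi1, 4.24 for Ndufa4l2, 3.85 for Fgf15 and 3.83 for Slc16a3. It was −4.23 for Srgn, −4.17 for Col4a2, −3.98 for Platr15, −3.72 for Nostrin and −3.65 for Hs3st1. Groups of 2 libraries are too small for a check on single outlying samples.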

How the results depend on the processing

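Calls for the late step depended on the scale and on the fit. Against 45 genes higher and 23 lower, spike-in scaled TPM gave 1 and 71, the replicate block 102 and 114, and the block on spike-in scaled TPM 22 and 3372. Wild-type libraries alone gave 16 higher, the 4 libraries alone 0 and 1, and no filter on low values 15 lower. Wild-type libraries alone on spike-in scaled TPM, added after seeing the data, gave 17 and 3611. Leaving out 1 library gave 1 to 20 higher and 1 to 13 lower, and on the spike-in scale, also added after seeing the data, 0 and 7 without replicate 1 at 144 h, 0 and 4 without replicate 2 at 144 h, 1 and 8 without replicate 1 at 72 h and 0 and 1 without replicate 2 at 72 h. For the difference from the first day (1924 and 1866), spike-in scaled TPM gave 95 and 239, the block on it 546 and 1447, and wild-type libraries on it 420 and 1199. Leaving out 1 library there gave 1099 to 1755 and 1027 to 1504, and on the spike-in scale, in the same order of libraries, 29 and 58, 33 and 52, 58 and 77, and 19 and 32. Centring libraries, a pseudocount of 0.1, a minimum of 5 TPM and leaving out short and mitochondrial genes kept all 4 counts within 1.5 times. The causes were not tested.

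Of 35 named called genes all stayed called with the block. With the sign kept, 18 lost the call on the spike-in scale and 15 without a filter on low values. In wild-type libraries alone 14 did so, and in the 4 libraries alone 34. On the spike-in scale, with or without the block and in wild-type libraries alone, Acly (−0.092) and Pgam1 (−0.057) changed sign. Without replicate 1 at 144 h Acly (−0.19) and Pgam1 (−0.14) did so on that scale. Without replicate 2 at 72 h Lss (−0.13), Acly (−0.21), Eno1b (−0.027), Pgam1 (−0.22) and Gm4735 (−0.017) did.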

Other observations

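The spike-in factors inferred for the 14 libraries were all equal, within 0.001, to 76 divided by a whole number, with whole numbers from 27 to 76. They were 46 and 51 for the libraries at 72 h and 71 and 76 for those at 144 h.

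The 14 genes of the trophectoderm list summed to 48.0 and 50.1 TPM at 72 h and to 49.2 and 48.9 TPM at 144 h. Among them Gata3, a trophectoderm factor, was at 4.71 and 5.20 TPM and then at 1.14 and 1.05 TPM (log2 change −1.51, limma adjusted p = 0.093, and 0.020 with the block).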
